A study of Homo sapiens with 5 samples.

Results

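Alisertib (MLN8237), an inhibitor of the mitotic kinase Aurora A, was compared with both control arrays of the study at once, gene by gene. A gene was taken when its value on the MLN8237 array lay above or below the values on both the DMSO and the siNT array, and its distance was the log2 difference to the nearer of these controls. Of 18239 genes, 8628 met this rule (47.3%), 3214 above both controls and 5414 below both. The rule chose these genes by their measured values, so the distances are a description and carry no test.

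The cells were GFP-SAS, human cells of a tongue squamous carcinoma line labelled with GFP (green fluorescent protein). One culture was exposed to DMSO (the vehicle), one to 100 nM MLN8237, one to a non-targeting siRNA (siNT) and one each to 10 nM siAURKA-1 and siAURKA-2, all for 24 h. The siNT dose is ambiguous in the labels and is not used here. Each condition had 1 Affymetrix GeneAtlas array, so no difference below has a replicate check, no p-value is given, and precision is limited by having so few arrays. Values are read as log2 signal and had been centred before deposit so that 0 is the median of the 5 arrays for each probe set. They compare arrays and hold no expression level, so the squamous identity of the line could not be checked from marker levels.

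Aurora A is a serine/threonine kinase that matures centrosomes and builds the bipolar spindle, activated by TPX2 and, together with BORA, activating PLK1 for entry into mitosis. MLN8237 blocks the ATP pocket of the kinase, whereas a siRNA removes its mRNA, and in many cell lines it slows passage through mitosis. Genes of mitosis are transcribed mainly in G2 and M through promoter elements called cell cycle genes homology regions, and genes of DNA replication mainly in late G1 and S through E2F sites. DMSO is the solvent control and siNT the control of the siRNA arrays, and the rule asks for a value outside both.

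Most distances were small. The median distance of the 8628 genes was 1.03-fold, and the 95th percentile was 1.16-fold, against a 95th percentile of 1.33-fold for the difference between the 2 controls over all genes. At any distance, 17.6% of genes lay above both controls and 29.7% below, a split that became 27.0% and 28.9% when the arrays were quantile normalized. At 1.1-fold or more 462 genes were above both (2.53%) and 750 below (4.11%), and at a log2 distance of 0.32 or more 82 were above (0.45%) and 75 below (0.411%). At 1.5-fold or more, 25 genes (0.137%) were outside both: 14 genes were above both controls (0.0768% of genes) and 11 below (0.0603%), and at 2-fold 0 were above (0%) and 1 was below (0.00548%). Quantile normalization, which gives every array the same spread, put 70 genes above and 47 below at 1.5-fold. The remaining 9611 genes lay between the controls (5439) or exactly level with one of them (4172).

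Set beside this, the siAURKA-1 array lay outside both controls by at least 1.5-fold for 794 genes (4.35%) and the siAURKA-2 array for 514 (2.82%), with the same 2 control arrays shared by all 3 comparisons. The MLN8237 array had the smallest spread over genes, with an SD of 0.098 against 0.26 for siAURKA-1, 0.21 for siAURKA-2, 0.12 for DMSO and 0.14 for siNT, and the part of this in the counts was not tested. The controls themselves were at least 1.5-fold apart for 380 genes (2.08%), a count that needs only 1 array to be passed instead of 2.

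**Figure D1:**
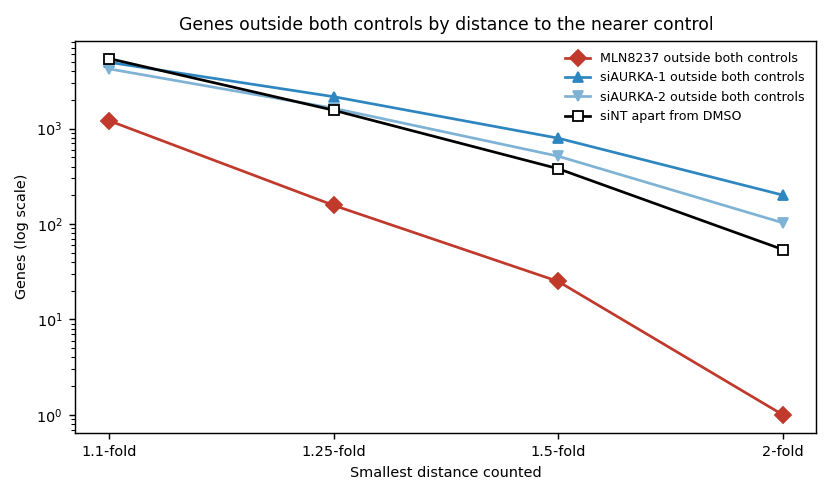
Number of genes (log axis) outside both controls by at least each of 4 distances up to 2-fold on the MLN8237, siAURKA-1 and siAURKA-2 arrays, with the number of genes by which siNT and DMSO were apart. The MLN8237 line runs from 1212 genes (6.65%) at 1.1-fold to 25 at 1.5-fold and 1 at 2-fold, below the lines of both siRNA arrays at each distance.

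The largest distance above both controls was that of SNAPC1, a subunit of the complex that starts transcription of small nuclear RNA genes. Its values were 0.00 with DMSO, -0.11 with siNT and 0.98 with MLN8237, and the siRNA arrays read -0.30 and 0.00. The distance was 0.97 (1.96-fold), and both of its probe sets lay above both controls. NEURL1B, a ubiquitin ligase acting on Notch ligands, read 0.00, -0.13, 0.78, -0.06 and 0.28 in the same order of arrays, a distance of 0.78 from a single probe set. Both genes were higher with MLN8237 than on any of the other 4 arrays, and their control values lay close together.

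DDIT3 encodes CHOP, a transcription factor of the stress response that favours cell death. It read -0.02 with DMSO, -0.16 with siNT and 0.75 with MLN8237, a distance of 0.77, and -0.12 and 0.82 with siAURKA-1 and siAURKA-2. The siAURKA-2 array, which also lay above both controls, was as high as the MLN8237 array, while the siAURKA-1 array lay between the controls. SCG2, encoding the secretory granule protein secretogranin II, had the same distance of 0.77 but controls far apart, at 0.00 with DMSO and -0.87 with siNT. It read 0.77 with MLN8237 and 1.44 and -1.26 on the siRNA arrays, and was the only one of the 14 genes whose distance did not exceed the difference between the controls.

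For 2 further genes the controls coincided in the gene values, which are medians over probe sets, and the siRNA arrays lay on the other side. CCND2, encoding the G1 regulator cyclin D2, was 0.76 with MLN8237 and 0.00 on both controls, with -1.44 for siAURKA-1 and -0.10 for siAURKA-2. NEXN, encoding the actin-binding protein nexilin, was 0.73 with MLN8237 and 0.00 on both controls, with -0.67 and -0.77 for the siRNAs. All 3 probe sets of CCND2 and all 7 of NEXN lay above both controls with MLN8237. The CCND2 probe sets had unequal distances of 0.79, 0.42 and 0.19. On the one at 0.42 the controls were apart, at 0.34 with DMSO and 0.00 with siNT. Those of NEXN ranged from 0.46 to 0.97. MAOA, the monoamine oxidase A gene, read -0.12 with DMSO, 0.00 with siNT, 0.70 with MLN8237 and -1.17 and 0.28 on the siRNA arrays, and 3 of its 4 probe sets lay above both controls.

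The other 7 genes at least 1.5-fold above both controls had distances from 0.59 to 0.66. They were IL37, an interleukin 1 family member that dampens inflammation (0.66), RELB, a subunit of NF-kB (0.63), TRNP1 (0.61), the Golgi transport gene GOLT1A (0.61), IGFL1 (0.60), BLMH, a cysteine protease (0.60), and HMGCS1, which makes HMG-CoA for sterol synthesis (0.59). HMGCS1, at 1.51-fold, was the nearest inside the 1.5-fold limit, and the mitotic kinesin gene CENPE and RASSF1 were the nearest outside it, both at 1.49-fold. In total MLN8237 was the highest of the 5 arrays for 8 of the 14 genes. Of the 8 genes with several probe sets, 7 had every probe set above both controls.

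**Figure D2:**
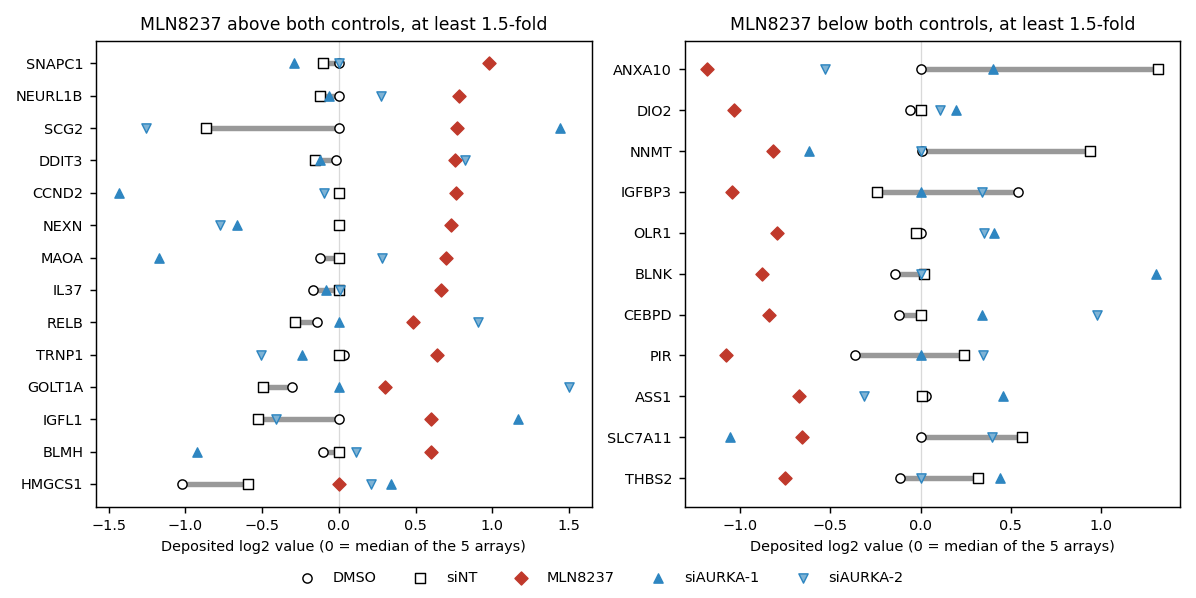
Deposited log2 values of the 25 genes at least 1.5-fold outside both controls on the MLN8237 array, 1 symbol per array, with a grey bar joining the DMSO and siNT values. The red diamonds of MLN8237 lie beyond the end of every grey bar, from 0.97 above it for SNAPC1 to 1.18 below it for ANXA10.

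Below both controls, ANXA10, a member of the annexin family, had the largest distance. It read 0.00 with DMSO, 1.32 with siNT and -1.18 with MLN8237, a distance of -1.18 (2.27-fold), and 0.40 and -0.53 with siAURKA-1 and siAURKA-2. Its single probe set was lowest with MLN8237, but the controls were further apart (1.32) than MLN8237 was from the nearer one. The same held for NNMT, nicotinamide N-methyltransferase, at 0.01 with DMSO, 0.94 with siNT and -0.82 with MLN8237, with -0.62 and 0.00 for the siRNAs. For the other 9 genes the distance exceeded the difference between the controls.

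DIO2, the enzyme that converts thyroxine to the active hormone, was the clearest of these, with both controls nearly level. It read -0.06 with DMSO, 0.00 with siNT, -1.04 with MLN8237, 0.20 with siAURKA-1 and 0.11 with siAURKA-2. The distance was -0.98 (1.97-fold), and all 5 of its probe sets lay below both controls. OLR1, the lectin-like receptor for oxidized LDL, read 0.00, -0.02, -0.80, 0.41 and 0.35 in the same order, again with all 4 probe sets below both controls. CEBPD, a C/EBP transcription factor of inflammatory and differentiation programmes, read -0.12, 0.00, -0.84, 0.34 and 0.98, with all 5 probe sets below. In these 3 genes the MLN8237 array was lowest and both siRNA arrays lay above both controls.

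IGFBP3, which binds insulin-like growth factors, read 0.54 with DMSO, -0.24 with siNT, -1.04 with MLN8237, 0.00 with siAURKA-1 and 0.34 with siAURKA-2, a distance of -0.80. Its 2 probe sets both lay below both controls. The cystine importer gene SLC7A11 read 0.00, 0.56, -0.66, -1.06 and 0.40, and was the only one of the 11 genes for which another array, siAURKA-1, was lower than MLN8237. The remaining 4 genes with distances between -0.64 and -0.74 were the B-cell adaptor gene BLNK (-0.74), PIR, encoding the iron-binding nuclear protein pirin (-0.71), ASS1, argininosuccinate synthase (-0.68), and THBS2, thrombospondin 2 (-0.64). THBS2 was the nearest inside the 1.5-fold limit (1.55-fold), and POLR3GL (1.49-fold) and the acute phase inhibitor gene SERPINA3 (1.47-fold) were the nearest outside it. All 7 genes with several probe sets had every probe set below both controls.

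Requiring both controls left out genes that differed strongly from one of them. ANKRD1, an ankyrin repeat gene that responds to YAP, differed by 1.24 from DMSO and by -0.30 from siNT. EGR1, an immediate early transcription factor, differed by 1.42 from siNT and by -0.05 from DMSO, and METTL9 and KIF3A were 1.14 and 1.05 above siNT and within 0.04 of DMSO. TMPRSS11E, a membrane serine protease, differed by -1.82 from siNT and by 0.52 from DMSO. These genes lay between the controls on the MLN8237 array and so are not counted. With DMSO alone as control, 67 genes would have been at least 1.5-fold higher (0.367%) and 21 lower (0.115%), and with siNT alone 117 (0.641%) and 176 (0.965%).

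**Figure D3:**
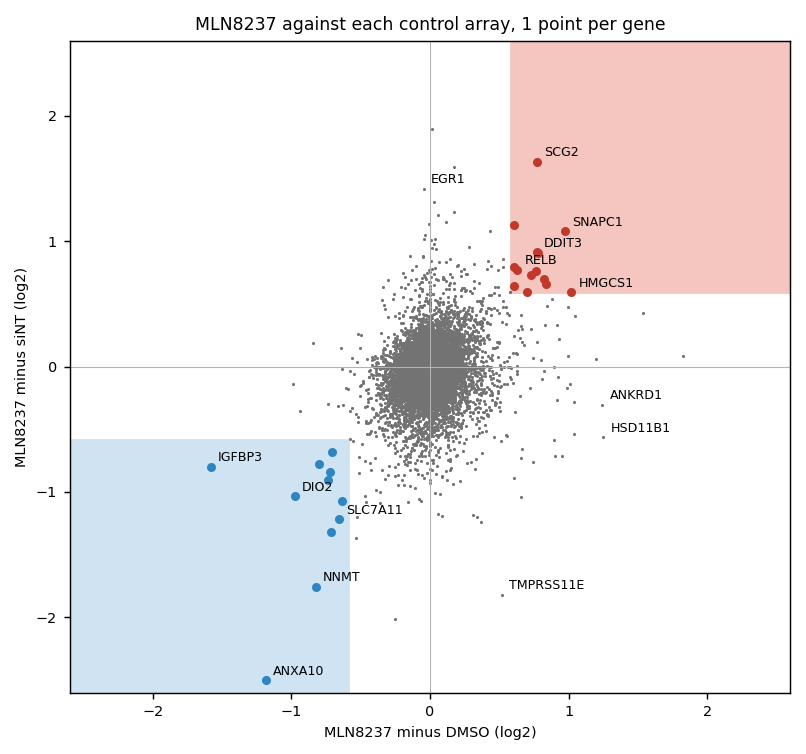
Log2 difference of MLN8237 from DMSO (horizontal) and from siNT (vertical) for 18239 genes, with the 2 corners where MLN8237 is at least 1.5-fold above (red) or below (blue) both controls shaded. The 14 red and 11 blue genes lie in these corners, whereas ANKRD1, EGR1 and TMPRSS11E lie far along 1 axis and outside both corners.

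Genes of G2 and mitosis were mostly above both controls on the MLN8237 array, each by a modest amount. Of 34 measured genes of this list, 28 lay above both controls (82.4%, against 17.6% of all genes) and 2 below. At 1.1-fold or more, 19 of the 34 were above and 0 below, against 2.53% of all genes above, and at 0.32 or more 6 were above, against 0.45%. The median difference was 0.20 from DMSO and 0.21 from siNT, while the median over all genes was 0.00 from either. No member reached 1.5-fold. Since these are bulk cultures, more cells in a phase and more RNA per cell cannot be told apart.

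The kinetochore motor gene CENPE had the largest distance of the list (0.58), at 0.00 with DMSO, -0.02 with siNT and 0.58 with MLN8237, and read -0.82 and 0.00 with siAURKA-1 and siAURKA-2. NDC80, encoding the kinetochore protein that binds microtubules, read 0.00, -0.12, 0.46, -0.72 and 0.15. ANLN, a scaffold of the cytokinetic ring, read 0.00, -0.37, 0.41, -0.78 and 0.24, with all 4 probe sets above both controls. In these 3 genes the MLN8237 array was the highest and the siAURKA-1 array the lowest of the 5. HMMR, which binds hyaluronan and spindle microtubules, read -0.06, 0.00, 0.35, -1.13 and 0.32, so that siAURKA-2 came close to MLN8237.

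MLN8237 was the highest of the 5 arrays for 26 of the 34 genes and the lowest for 0. CCNB1, encoding the mitotic cyclin B1, had a distance of 0.22, CDC20, the activator of the anaphase-promoting complex, 0.19, and the centromeric histone gene CENPA 0.33. The 6 genes that did not lie above both controls were TOP2A, CENPF, SPC25, KIF23, CDC25B and CDK1. On the siRNA arrays, set side by side with the same controls, the list's median differed from siNT by -0.43 with siAURKA-1 and by 0.05 with siAURKA-2.

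AURKA and several other genes of the list of Aurora kinases and cofactors were also above both controls. AURKA mRNA, read by 1 probe set, was 0.15 with DMSO, 0.00 with siNT and 0.64 with MLN8237, a distance of 0.49 (1.40-fold), against -3.36 and -2.64 on the knockdown arrays. BORA, the cofactor through which Aurora A activates PLK1, was 0.53 above both controls, which were level at 0.00, and all 3 of its probe sets lay above. CDCA8, encoding borealin of the chromosomal passenger complex, had a distance of 0.42 and TPX2 one of 0.16. AURKB (-0.03), PLK1 (0.01), AJUBA (-0.03), CEP192 (-0.01) and TACC3 (0.01) were within a few hundredths of a control. In the list of 17 Aurora kinases and cofactors, 11 lay above both controls (64.7%, against 17.6% of all genes) and 3 below (17.6%, against 29.7%). At 1.1-fold or more 6 were above, against 2.53% of all genes, and 0 below.

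Genes of DNA replication stood differently: they were lower than with DMSO and near siNT. Of 39 measured S phase genes, 17 lay below both controls (43.6%, against 29.7% of all genes), 1 above, and 21 between the controls or level with one. The median difference was -0.25 from DMSO and 0.02 from siNT, since siNT itself was lower than DMSO by a median of -0.30. Against DMSO alone 38 of the 39 were lower, as were 46.1% of all genes. The distances were small, and 5 genes were below both controls by at least 1.1-fold, against 4.11% of all genes.

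PRIM1, the catalytic subunit of primase, had the largest distance (-0.23), at 0.51 with DMSO, 0.23 with siNT, 0.00 with MLN8237, -0.96 with siAURKA-1 and -0.50 with siAURKA-2. ORC1, the largest subunit of the origin recognition complex, read 0.59, 0.18, 0.00, -0.54 and -0.35. POLA2, an accessory subunit of DNA polymerase alpha, read 0.45, 0.18, 0.00, -1.17 and -0.16. In each of them the order from high to low was DMSO, siNT, MLN8237 and then the siRNA arrays. GINS4, of the replicative helicase, had a distance of -0.19, with 3 of 4 probe sets below both controls. For RRM1, PCNA and the MCM helicase genes MCM2 to MCM7 the MLN8237 value lay between the controls or level with one.

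**Figure D4:**
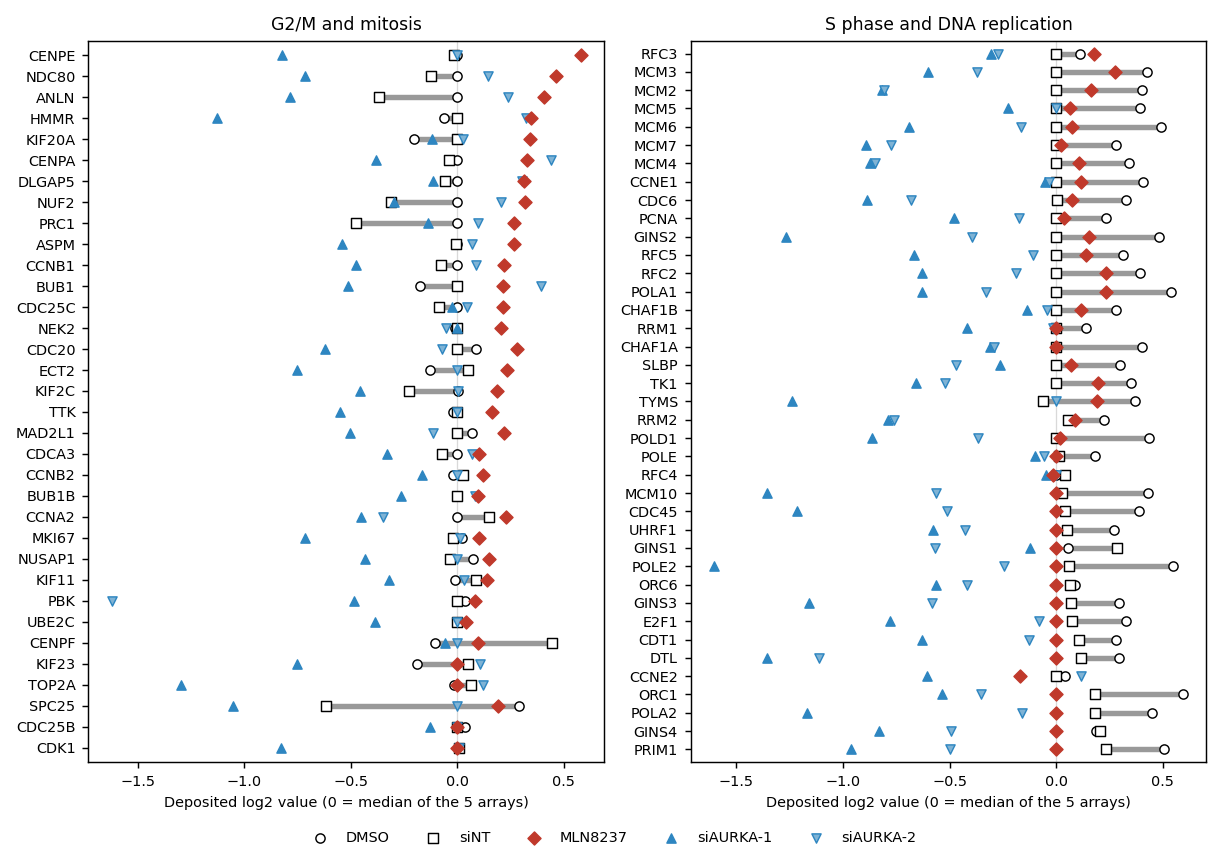
Deposited log2 values of 34 G2/M genes (left) and 39 S phase genes (right) on the 5 arrays, ordered by distance, with a grey bar joining DMSO and siNT. MLN8237 (red) lies above the bar for 28 of the G2/M genes and below it for 17 of the S phase genes. The siAURKA-1 array lies below the bar for 28 G2/M and 39 S phase genes, against 28.2% of all genes. The siAURKA-2 array lies above the bar for 17 G2/M genes, against 34.4% of all genes, and below it for 5. It lies below the bar for 35 S phase genes, against 27.2% of all genes.

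Promoters of the G2/M list were searched for the cell cycle genes homology region, TTTGAA, and those of the S phase list for the E2F site, TTTGGCGC or TTTCGCGC. Both strands were searched, from 250 bases before to 50 bases after each start. Members were counted whatever their value with MLN8237, so the shares of the lists describe the lists and not the MLN8237 array. None of these motifs contains another. Of 31 G2/M genes with a window, 23 held TTTGAA (74.2%), against 18.2% of 27305 genes in the RefSeq table and 1 of 35 S phase genes. Of the 35 S phase genes, 13 held either of these E2F sequences (37.1%), against 1.40% of all genes and 2 of the 31 G2/M genes. Other forms of the E2F site were not searched. Among all genes above both controls by a log2 distance of 0.32 or more, 67 had a window and 13 of these held TTTGAA (19.4%), close to the share of all genes. A match is a description of the sequence and not shown to be a bound site.

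Of the G2/M genes above both controls, 25 had a window, and 10 of these held TTTGAA within the 100 bases before the start. The other 15 held no TTTGAA there, among them CENPE (0.58) and NDC80 (0.46), the 2 of largest distance, and KIF20A (0.34). The share over all genes was not counted for these 100 bases, so these counts have no background beside them. These bases are shown for the 4 G2/M genes of largest distance with TTTGAA in this stretch, from RefSeq (GRCh38.p14), with the motif on either strand in capitals. The windows are chr7:36389762-36389861 (plus strand) for ANLN, chr5:163460532-163460631 (plus) for HMMR, chr2:26785956-26786055 (plus) for CENPA and chr15:90994536-90994635 (minus) for PRC1.
ANLN: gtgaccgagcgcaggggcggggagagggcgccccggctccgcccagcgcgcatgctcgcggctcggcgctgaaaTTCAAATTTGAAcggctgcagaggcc
HMMR: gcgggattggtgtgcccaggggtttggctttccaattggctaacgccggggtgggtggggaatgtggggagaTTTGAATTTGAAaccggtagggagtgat
CENPA: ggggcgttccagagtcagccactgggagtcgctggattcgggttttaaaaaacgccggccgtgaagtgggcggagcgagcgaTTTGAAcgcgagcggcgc
PRC1: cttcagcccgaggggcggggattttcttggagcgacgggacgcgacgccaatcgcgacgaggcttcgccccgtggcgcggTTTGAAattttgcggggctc
ANLN and HMMR each hold 2 matches. CENPA and PRC1 hold 1 match each, starting 18 and 20 bases before the start. The distances of these genes from the nearer control were 0.41, 0.35, 0.33 and 0.27.

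Of the S phase genes below both controls, 15 had a window, and 4 of these held a searched E2F sequence in the same stretch. The other 11, among them PRIM1, ORC1 and CDT1, held neither searched sequence there, and other forms of the site were not looked for. The share over all genes was not counted for this stretch. The stretch is shown for the 3 of these 4 genes with the largest distance, with the searched sequence in capitals. The other, POLE, was -0.01 from the nearer control. The windows are chr11:65261862-65261961 (plus) for POLA2, chr1:212035648-212035747 (plus) for DTL and chr20:33686386-33686485 (minus) for E2F1.
POLA2: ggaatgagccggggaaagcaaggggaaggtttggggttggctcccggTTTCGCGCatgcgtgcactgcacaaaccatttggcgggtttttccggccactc
DTL: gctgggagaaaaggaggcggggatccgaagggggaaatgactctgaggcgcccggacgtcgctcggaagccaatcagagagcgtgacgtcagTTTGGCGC
E2F1: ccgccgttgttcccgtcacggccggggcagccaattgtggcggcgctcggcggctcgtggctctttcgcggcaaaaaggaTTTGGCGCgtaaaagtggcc
POLA2, DTL, which directs replication proteins to destruction, and E2F1, an E2F family transcription factor, had distances of -0.18, -0.12 and -0.07.

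Of 26 measured genes of NF-kB signalling and cytokines 10 lay above both controls (38.5%, against 17.6% of all genes) and 2 below. At 1.1-fold or more 7 were above, against 2.53% of all genes. RELB read -0.14 with DMSO, -0.29 with siNT, 0.49 with MLN8237, 0.00 with siAURKA-1 and 0.91 with siAURKA-2. TNFAIP3, a feedback inhibitor of NF-kB, read -1.11, 0.00, 0.43, -0.59 and 1.11. NFKBIE, another inhibitor of the pathway, had a distance of 0.38, and the neutrophil chemokine genes CXCL2, CXCL1 and CXCL3 had 0.33, 0.23 and 0.22. The difference between the controls was large in this list. Against DMSO alone 19 of the 26 were higher, as were 38.7% of all genes, and the median was 0.20, whereas against siNT the median was 0.00. CXCL8 exceeded the nearer control by only 0.06, and IL1A, IL1B and CCL20 lay between the controls.

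Genes of cholesterol synthesis and uptake were above both controls for 12 of 19 measured members (63.2%, against 17.6% of all genes) and below for 2. HMGCS1 read -1.02 with DMSO, -0.59 with siNT and 0.00 with MLN8237, and 0.34 and 0.21 with siAURKA-1 and siAURKA-2. IDI1, the isopentenyl diphosphate isomerase, read -0.61, -0.37, 0.05, 0.03 and 0.08, and was nearly level on the 3 arrays in which Aurora A was targeted. STARD4 and SQLE, the sterol carrier and squalene epoxidase genes, had distances of 0.20 and 0.18, with every one of their 5 and 4 probe sets above both controls. These 4 genes were the ones above by at least 1.1-fold, against 2.53% of all genes. The median of the list was 0.20 above DMSO and 0.05 above siNT.

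Of 17 measured target genes of NRF2, the regulator of antioxidant defence, 10 were below both controls (58.8%, against 29.7% of all genes) and 1 above. At 1.1-fold or more 3 were below, against 4.11% of all genes. These 3 were SLC7A11 (-0.66), the quinone reductase gene NQO1 (-0.43) and the aldo-keto reductase gene AKR1B10 (-0.36). NQO1 read 0.12 with DMSO, 0.45 with siNT, -0.31 with MLN8237, 0.04 with siAURKA-1 and -0.48 with siAURKA-2. AKR1B10 read -0.12, 0.52, -0.47, 1.27 and 0.00. The siRNA values of these genes went in different directions, and HMOX1 and the AKR1C genes lay between the controls or level with one. The median of the list was -0.01 from DMSO and -0.22 from siNT.

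Stress genes did not move as one. In the list of the unfolded protein and integrated stress response, DDIT3 stood 0.77 above both controls, while 12 of the 23 measured genes lay below both (52.2%, against 29.7% of all genes) and 2 above. CTH, cystathionine gamma-lyase, read 0.34, 0.53, 0.00, -0.22 and -0.55 in the order DMSO, siNT, MLN8237, siAURKA-1 and siAURKA-2. PSAT1, a serine synthesis enzyme, read 0.42, 0.33, 0.00, -1.28 and -0.26, with all 8 probe sets below both controls. Their distances were -0.34 and -0.33. The chaperone gene CALR had a distance of -0.20, and ATF4, the transcription factor upstream of DDIT3, one of -0.09.

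Interferon-stimulated genes lay below both controls for 12 of 25 measured members (48.0%, against 29.7% of all genes) and above for 1. IFIT2 read -0.10 with DMSO, 0.00 with siNT, -0.53 with MLN8237, 0.14 with siAURKA-1 and 1.42 with siAURKA-2. IFIT3 read 0.00, 0.17, -0.33, 0.00 and 0.79. The antiviral gene IFI6 had a distance of -0.16. For these 3 genes MLN8237 was lowest and siAURKA-2 highest. They were the only members below by at least 1.1-fold, a distance that 4.11% of all genes reached, and MX1, ISG15 and IFIT1 lay between the controls or level with one.

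The p53 target list held 9 of 25 genes above both controls (36.0%, against 17.6% of all genes) and 5 below. CDKN1A, encoding p21, lay between the controls (-0.45 with DMSO, 0.00 with siNT, -0.33 with MLN8237), and read 1.05 and 0.75 on the siRNA arrays. MDM2 was 0.01 above the nearer control, and GDF15, a stress cytokine, lay between the controls at 0.00, -0.66 and -0.51. GADD45A, a growth arrest gene, was 0.36 above both controls, and SFN, encoding 14-3-3 sigma, -0.29 below. Among 17 BCL2 family genes 2 were above (11.8%) and 3 below (17.6%), both under the shares of all genes (17.6% and 29.7%). PMAIP1, encoding the cell death activator NOXA, had the largest distance of this family (0.17), with the controls 0.51 apart.

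Among epithelial genes the basal and the differentiation lists stood differently. Of 13 measured basal squamous genes 8 lay below both controls (61.5%, against 29.7% of all genes) and 1 above, 4 of them below by at least 1.1-fold (against 4.11% of all genes). KRT5, the basal keratin, read 0.19 with DMSO, 0.00 with siNT, -0.26 with MLN8237, and 0.32 and -1.82 on the siRNA arrays. DSG3, a desmosomal cadherin, read -0.45, 0.17, -0.70, 0.00 and 0.06. Of 29 keratinocyte differentiation genes 6 were below (20.7%, under the share of all genes) and 4 above, with a median difference of 0.00 from either control and with S100A9, a subunit of calprotectin, at -0.39. Hypoxia and glycolysis genes lay below both controls for 10 of 19 (52.6%, against 29.7% of all genes) and above for 0, but the mTORC1 inhibitor gene DDIT4 (-0.53) was the only one below by 1.1-fold or more. Tubulin genes were above for 8 of 17 (47.1%, against 17.6% of all genes) and below for 3, with TUBB2A the furthest (0.22).

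In other lists few members were far from both controls. At any distance, 29.7% of all genes were below both controls and 17.6% above. Among TGF-beta and BMP targets 4 of 23 were below (17.4%) and 0 above, with IGFBP3 first and TGFBI next (-0.20). Among 20 YAP-responsive genes 8 were below (40.0%) and 3 above (15.0%), with the tissue factor gene F3 the furthest (-0.32). Of 22 mesenchymal genes 7 were below (31.8%) and 3 above (13.6%), with SPARC at -0.30 and TWIST1 at 0.30. Of 23 immediate early genes 7 were above (30.4%) and 1 below (4.35%), with KLF10 the furthest (0.29). Of 7 drug efflux transporter genes 3 were below (42.9%) and 1 above (14.3%), with ABCC3 at -0.35 and ABCG2 at -0.19.

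Among thyroid, steroid and retinoid enzymes 5 of 19 were above (26.3%, against 17.6% of all genes) and 6 below (31.6%, against 29.7%). CYP1A1 (0.42) and HSD17B2 (0.41) lay above both controls, against DIO2 and NNMT below. The insulin receptor substrate gene IRS2 was 0.24 above. Of 22 replication-dependent histone genes 8 were above (36.4%) and 6 below (27.3%). Ribosome biogenesis genes lay below for 13 of 28 and above for 2 (7.14%), with the rRNA methyltransferase gene FBL at -0.21. Ribosomal protein genes lay below for 12 of 23 and above for 2 (8.70%), with 0 past 1.1-fold. The shares below in both of these last lists (46.4% and 52.2%, against 29.7% of all genes) came with distances that reached -0.21 and -0.11.

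In 4 further lists, as in most of the lists here, no member was 1.5-fold from both controls. Of heat shock genes 5 of 14 were below (35.7%) and 3 above (21.4%), and of fatty acid synthesis genes 6 of 13 (46.2%) and 4 (30.8%). Of EGF family genes 6 of 13 were below (46.2%) and 1 above (7.69%), and of MAPK feedback genes 2 of 17 (11.8%) and 3 (17.6%). Over all genes, 29.7% were below and 17.6% above. ELOVL5, a fatty acid elongase (0.34), and SREBF1, which encodes a lipogenic transcription factor (-0.24), were the furthest among these 4 lists together with DUSP2 (-0.25). Of annexins 4 of 11 were below (36.4%) and 2 above (18.2%), with ANXA10 (-1.18) far beyond the next, ANXA11 (-0.11). Of IGF binding proteins and receptors 3 of 13 were below (23.1%) and 2 above (15.4%), with IGFBP3 at -0.80. Of squamous markers 5 of 9 were below (55.6%) and 2 above (22.2%), 3 of the markers being the basal genes SFN, KRT5 and DSG3. Markers of fibroblasts (3 of 10 below, 1 above), leukocytes (3 of 9 and 0) and endothelium (3 of 10 and 2) lay within -0.08 to 0.03 of a control. Their shares below (30.0%, 33.3% and 30.0%) were near the 29.7% of all genes.

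**Figure D5:**
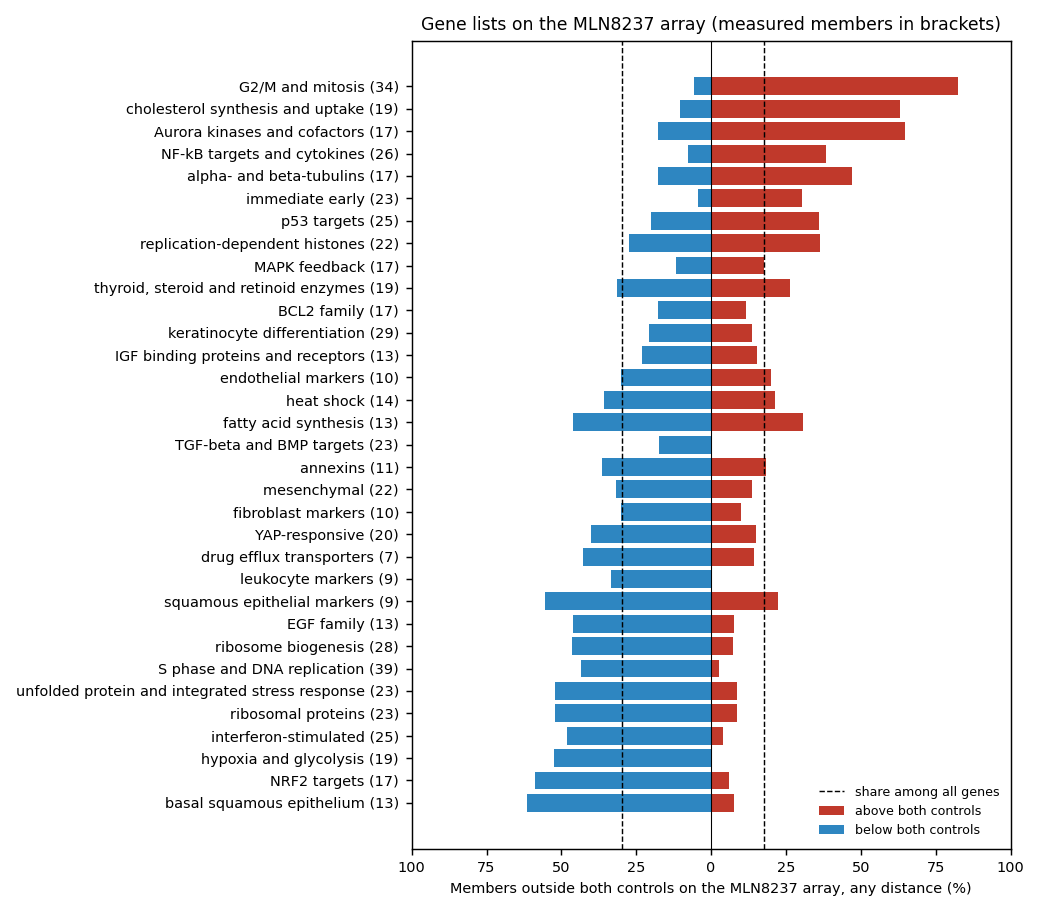
Share of the measured members of 33 gene lists that lay above both controls (red, to the right) or below both (blue, to the left) on the MLN8237 array at any distance, with dashed lines at the shares among all genes (17.6% and 29.7%). The G2/M list reaches 82.4% above, and the basal squamous list reaches 61.5% below.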

How the data were processed

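Total RNA of 5 GFP-SAS cultures was labelled with biotin for Affymetrix GeneAtlas 3' arrays, per the labels' protocols, 1 array per treatment, and arrays were grouped by the treatment in the labels. The deposited table, taken as log2 signal, was made with RMA per the submitters' processing notes. Which program ran it, the log base and how values were centred were not given in the sources used here. All 49386 probe sets had a median of 0 across arrays, and 52.1% held 0 on 2 or more arrays. Of the probe sets 93 were controls, 1327 named several genes and 2713 had no listed gene. Symbols came from the platform annotation, and 45178 of 45259 single Entrez numbers matched RefSeq (GRCh38.p14). Gene values are medians over the probe sets that name that gene alone (6417 genes had 1). Python 3.11.15 with numpy 2.4.6 and pandas 2.3.3 was used, and the distance calculation was tested on simulated data.

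With 1 array per group no test was possible, so the limit for counting was 1.5-fold, and lower and higher limits were tried. No level exists to filter on. Alternatives in scaling, probe set summary and control are in the closing section. Members and the 33 gene lists (626 of 670 entries measured) were chosen with earlier results of these data known, and the 11 promoter motifs searched after values were seen. Named genes were the 20 furthest above and below both controls, up to 4 per list, 8 fixed cell cycle and p53 genes, 5 each side of the 1.5-fold limit and 5 each way between the controls. Others (the G2/M and S phase genes shown with sequences or by position, CENPA, PRC1, CDC20, DTL, E2F1, CXCL1, CXCL3, CXCL8, ATF4 and further list members) were named after their values were seen.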

Additional observations from a re-analysis of the deposited data

Results flagged for a closer look

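Probe sets that name several genes or none were not used for the gene values. Of these 4040 probe sets, 7 lay at least 1.5-fold above both controls with MLN8237 and 1 below, and of the 93 control probe sets 0 did either. The probe set 11722728_a_at had a distance of 1.22, larger than any gene above both controls, and 11742669_s_at had 0.94. The others above were 11731577_a_at at 0.85, 11728876_at at 0.78, 11734181_at at 0.69, 11728906_s_at at 0.64 and 11717439_s_at at 0.63. The one below, 11736548_s_at, had a distance of -0.61.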

How the results depend on the processing

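The numbers of genes outside both controls depended on the threshold and the control. Against 14 higher and 11 lower at 1.5-fold, there were 82 and 75 at a log2 distance of 0.32 and 0 and 1 at 2-fold, 39 and 31 against the mean of both controls, 67 and 21 against DMSO alone, 117 and 176 against siNT alone, and 8 and 6 where every probe set had to pass. Quantile normalization, which gives each array the same spread, gave 70 and 47, and these held all 14 and 11. Centring each array, the mean of probe sets, probe sets of several genes and leaving out the less variable genes kept the counts within 1.5 times. The 28 G2/M genes above both controls became 19 to 31 over 8 alternatives. The 17 S phase genes below became 38 against DMSO alone and 5 at 1.1-fold (an alternative added after the data were seen). Interferon-stimulated genes below (12) became 7 where every probe set had to pass, 19 against siNT alone and 3 at 1.1-fold. At 1.1-fold, NRF2 targets below (10) became 3 and cholesterol genes above (12) became 4. NF-kB genes above (10) became 19 against DMSO alone. Of the named genes, DCN alone changed sign, at 0.0032 after quantile normalization. The sizes of many distances did change: quantile normalization moved 95 of the named genes and left 63 the same. With siNT alone 94 moved and 65 stayed the same, and with DMSO alone 54 moved and 105 stayed the same. The mean of probe sets moved 24 and left 135 the same, whereas centring each array left all 159 the same. No paired analysis was possible because each group has 1 array. Depth has no meaning for arrays, and signal over background is unknown in centred values.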
